A study of Mus musculus with 800 samples.

Results

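Lhx6, Lhx8, Nkx2-1, Sox6, Satb1, Maf, Nr2f2, Prox1 and Npas1 are 9 transcription factors of forebrain interneuron lineages, and their levels are described here in 800 sorted mouse nuclei. The 9 were taken by gene symbol from the 32285 genes of the count table, and all 9 identifiers were found. In the embryo the medial ganglionic eminence gives rise to interneurons under Nkx2-1, which acts upstream of Lhx6, and Lhx6 in turn acts upstream of Sox6 and Satb1. Lhx8 works beside Nkx2-1 in the same eminence and is known for the cholinergic neurons of the striatum and basal forebrain. Nr2f2 and Prox1 are best known from interneurons of the caudal ganglionic eminence, Maf from the making of cortical interneurons, and Npas1 as a repressor that restrains interneuron production.

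Nuclei were sorted by SYFP2, a yellow reporter tied to histone H2B that labels the nucleus, delivered to C57Bl/6J mice by an adeno-associated virus with the brain-penetrant PHP.eB capsid. There were 20 vectors, each with its own enhancer or promoter and 40 nuclei: hSyn1, a neuronal promoter, CMV, a viral promoter, DLX2.0 and hI56i, built on enhancers of the Dlx genes, and 16 vectors known by code. All mice received the virus as young adults at 5e11 vg per mouse and nuclei were collected 3 to 4 weeks later. The labels name no animal, so a vector is 1 sample, vectors were not tested against each other, and the spread between vectors includes differences between their enhancers. Levels are read counts scaled to a total of 1e+06 in a nucleus or in a sum of nuclei (CPM).

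Of the nuclei, 698 had at least 1000 genes detected, and clustering with these 9 genes left out gave 274 interneuron-like, 161 striatal projection neuron-like, 107 glutamatergic-like, 106 astrocyte-like and 50 oligodendrocyte-like nuclei. Every label reads anterior lateral motor cortex, yet the striatal projection neuron-like nuclei carried Rgs9, a marker of striatal output neurons, at 1274 CPM (159 of 161 nuclei with a read). The study's design text also names the striatum and the primary visual cortex among the tissues sorted, and which nuclei came from them is not given in the labels. Title numbers were taken in runs of 8, and 77 of the 274 interneuron-like nuclei stood in runs that held a striatal projection neuron-like nucleus. For some of the results below, though not all, values inside and outside these runs, or without them, are given. Median depth was 253551.5 counts in interneuron-like nuclei and ran from 241227 in striatal projection neuron-like to 300958.5 in astrocyte-like nuclei over the other classes.

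Interneuron-like nuclei fell into 5 clusters, called here by leading genes: Pvalb/Pde5a (100 nuclei), Lama4/Crhbp (99), Vip/Adarb2 (27), Pthlh/Mc4r (25) and Nos1/Chodl (23). Pvalb and Vip mark well-known interneuron kinds, Nos1 with Chodl marks long-range Sst neurons, and Adarb2 is known from interneurons of the caudal eminence. All 274 were also split, by Sst or Pvalb at or above 100 CPM and by the higher of them where both were, into 108 Sst-high, 99 Pvalb-high and 67 nuclei with neither. Sst-high nuclei made up 79 of the 99 in the Lama4/Crhbp cluster and 23 of the 23 in the Nos1/Chodl cluster. A group of 4 nuclei inside the Lama4/Crhbp cluster held Chat and Slc5a7, the choline acetyltransferase and choline transporter of cholinergic neurons, and is called the Chat/Slc5a7 subcluster.

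The genes lie on the minus strand of mm10: Lhx6 at chr2:36081953-36105408, Lhx8 at chr3:154306294-154330659, Nkx2-1 at chr12:56531958-56536908, Sox6 at chr7:115470872-116038796 and Satb1 at chr17:51736187-51833290. Maf lies at chr8:115682942-115707794, Nr2f2 at chr7:70351944-70366735, Prox1 at chr1:190118035-190170714 and Npas1 at chr7:16455721-16477728. Strand is lost in this protocol, and reads of a gene and of an antisense partner over it cannot be told apart. Genes of the count table overlap Nkx2-1, Sox6, Maf, Nr2f2 and Prox1 on the other strand. For Nkx2-1 this is Gm26973, with 388 reads in interneuron-like nuclei, 239 of these in the Pthlh/Mc4r cluster, beside 578 reads of Nkx2-1 itself. The overlapping genes were not kept out of the clustering. Tests of Sox6, Maf, Nr2f2 and Prox1 between classes may therefore not be independent of how the classes were formed.

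Promoter windows were listed in RefSeq (GRCm38.p6, the same assembly as mm10) for 8 of the 9 genes. The 250 bases before the most upstream listed start are printed for 4 genes, picked after their values were seen. They are Nkx2-1 and Prox1, which had 13 of their 19 and 11 of their 18 interneuron-like nuclei in the Pthlh/Mc4r cluster, and the LIM homeodomain genes Lhx8 and Lhx6, which are described beside them. Capitals mark CAAGTG (bound by Nkx2-1), TGCTGA (core of Maf sites), TAATTA (core of many homeodomain sites) and ACAAT (core of Sox sites), each searched on both strands.
Nkx2-1 (chr12:56536909-56537158, minus strand): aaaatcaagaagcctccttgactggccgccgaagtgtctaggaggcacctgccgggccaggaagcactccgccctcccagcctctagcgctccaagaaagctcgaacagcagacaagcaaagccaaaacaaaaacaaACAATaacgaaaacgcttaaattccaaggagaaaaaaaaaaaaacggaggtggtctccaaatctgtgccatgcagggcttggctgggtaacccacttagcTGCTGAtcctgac
Prox1 (chr1:190170828-190171077, minus strand): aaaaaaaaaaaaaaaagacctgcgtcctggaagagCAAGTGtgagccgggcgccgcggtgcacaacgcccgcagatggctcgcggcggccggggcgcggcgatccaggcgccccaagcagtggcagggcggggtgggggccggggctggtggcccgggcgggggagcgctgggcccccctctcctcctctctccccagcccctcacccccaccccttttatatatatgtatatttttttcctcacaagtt
Lhx8 (chr3:154330561-154330810, minus strand): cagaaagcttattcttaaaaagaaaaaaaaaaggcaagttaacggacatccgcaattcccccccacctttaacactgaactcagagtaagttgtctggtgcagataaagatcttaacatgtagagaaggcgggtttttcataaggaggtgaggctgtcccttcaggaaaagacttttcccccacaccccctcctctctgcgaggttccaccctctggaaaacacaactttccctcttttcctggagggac
Lhx6 (chr2:36105409-36105658, minus strand): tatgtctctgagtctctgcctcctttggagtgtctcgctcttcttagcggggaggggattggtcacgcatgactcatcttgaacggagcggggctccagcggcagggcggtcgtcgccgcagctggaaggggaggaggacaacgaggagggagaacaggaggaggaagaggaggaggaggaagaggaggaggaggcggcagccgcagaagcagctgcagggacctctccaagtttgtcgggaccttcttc
The Nkx2-1 window holds ACAAT beginning 113 bases and TGCTGA beginning 13 bases before the start, and the Prox1 window holds CAAGTG beginning 215 bases before it. Among 32851 RefSeq windows of this length 27.7% hold ACAAT or its reverse complement, 16.1% TGCTGA, 11.6% CAAGTG and 4.84% TAATTA. The matches are descriptions of letters and not of binding.

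Lhx6, the LIM homeodomain factor that marks interneurons of medial origin throughout life, was read in interneuron-like nuclei and in no nucleus of the other 4 classes. A read of Lhx6 was present in 112 of 274 interneuron-like nuclei (40.9%, 95% exact interval 35 to 47%), and in 0 of 161 striatal projection neuron-like, 0 of 107 glutamatergic-like, 0 of 106 astrocyte-like and 0 of 50 oligodendrocyte-like nuclei. Taking 3 nuclei of the total as the limit that a count of 0 allows, here and below, these allow shares of up to 1.86%, 2.8%, 2.83% and 6.00%. At an equal depth of 150000 counts the interneuron-like share was 39.2%. Over the 18 vectors with at least 3 interneuron-like nuclei, Lhx6 ran from 6.00 CPM in hSyn1 through a median of 102 to 605 CPM in AiE0401h. Intervals here and below cover counting error only, since nuclei under a vector are not independent draws and reads are not molecules.

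**Figure D1:**
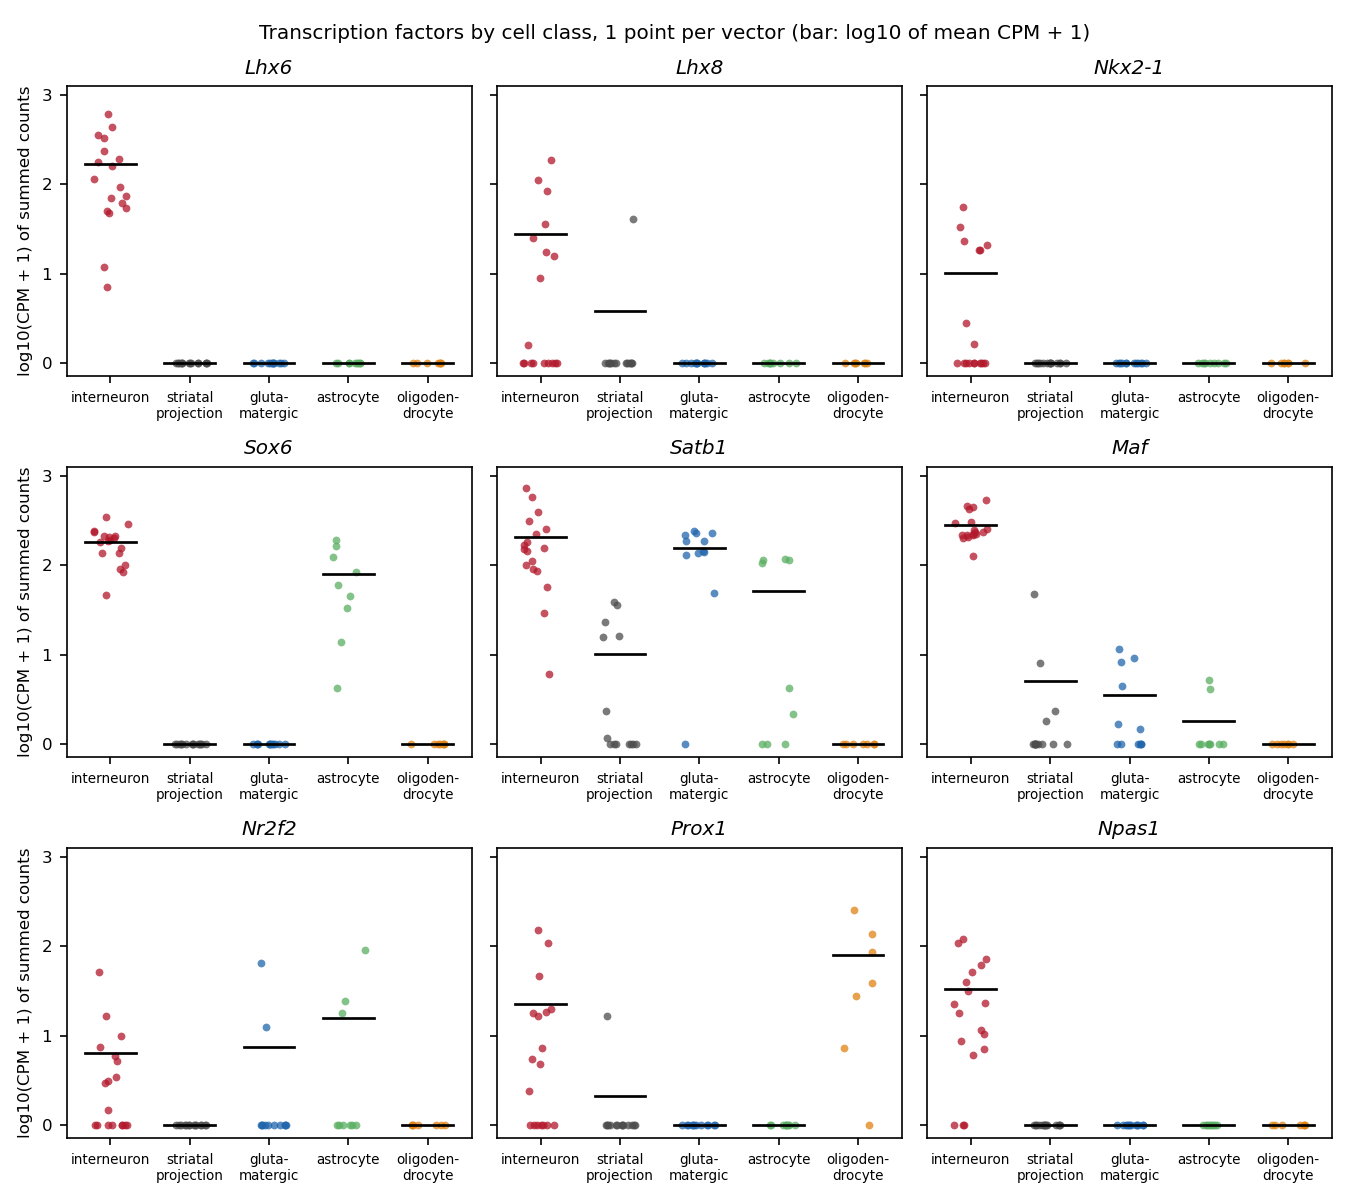
Level of each factor in each cell class, 1 point per vector with at least 3 nuclei of the class, as log10(CPM + 1) of summed counts; the bar is the mean CPM on the same scale. Interneuron-like sums of Lhx6 lie between 6.00 and 605 CPM while all sums of the other classes are at 0, and Satb1 overlaps between interneuron-like and glutamatergic-like sums.

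Sox6, an SRY-box factor needed for the placing and ripening of medial interneurons, was detected in 189 interneuron-like nuclei (69.0%, 63.1 to 74.4%) and also in 41 of 106 astrocyte-like nuclei (38.7%, 29.4 to 48.6%). Its level averaged 180 ± 74.9 CPM in interneuron-like sums (SD, n = 18 vectors) and 79.1 ± 66.7 CPM in astrocyte-like sums (n = 9). In the 9 vectors with both classes the interneuron-like sum was higher in 7, a difference that did not pass adjustment (exact sign-flip permutation test, two-sided, p = 0.0391, adjusted p = 0.0928 over 19 neighbouring pairs). Striatal projection neuron-like, glutamatergic-like and oligodendrocyte-like nuclei held 0 reads of Sox6.

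Maf, a basic leucine zipper factor, was detected in 220 of 274 interneuron-like nuclei (80.3%, 75.1 to 84.8%). It ran from 124 CPM in AiE0401h through a median of 232 to 530 CPM in DLX2.0, with a mean of 281 ± 110 CPM (n = 18). Striatal projection neuron-like sums averaged 4.03 ± 12.6 CPM (n = 14), and 0.702 ± 1.93 CPM without AiE0475m, which was at 47.3 CPM. Glutamatergic-like sums averaged 2.53 CPM and astrocyte-like sums 0.803 CPM. Maf was higher in interneuron-like than in striatal projection neuron-like sums in 12 of 12 vectors (exact sign-flip permutation test, two-sided, p = 0.000488, adjusted p = 0.00464, the smallest p that 12 vectors can give). For Lhx6 all 12 interneuron-like sums of these vectors held reads and all 12 striatal projection neuron-like sums were at 0, so no test of the sign is given.

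Satb1, a chromatin organiser that acts after Lhx6 in medial interneurons and is also known from cortical excitatory neurons, did not separate interneuron-like from glutamatergic-like nuclei. Interneuron-like sums ran from 4.99 CPM in AiE0450h through a median of 154 to 723 CPM in hSyn1, and glutamatergic-like sums ran from 0 through a median of 164 to 240 CPM. Shares with a read were 46.4% (40.3 to 52.4%) of interneuron-like and 43.0% (33.5 to 52.9%) of glutamatergic-like nuclei. The interneuron-like sum was higher in 7 of 12 vectors (p = 0.610, adjusted p = 1, exact sign-flip permutation test). Satb1 averaged 50.1 ± 58.5 CPM in astrocyte-like and 9.05 ± 13.8 CPM in striatal projection neuron-like sums, and oligodendrocyte-like nuclei held 0 reads.

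The other 5 factors were each read in few nuclei. Npas1 was found in 32 interneuron-like nuclei and 1 other, at 32.2 ± 36.6 CPM in interneuron-like sums (n = 18) against 0 in striatal projection neuron-like sums. Of the 12 vectors with both classes 10 held Npas1 in the interneuron-like sum, and with every striatal projection neuron-like sum at 0 no test of the sign is given. Lhx8 was found in 20 interneuron-like nuclei and in 1 striatal projection neuron-like nucleus at 383 CPM. Nkx2-1 was found in 19 nuclei, all interneuron-like, at 9.21 ± 15.3 CPM in their sums (n = 18). Interneuron-like sums were higher than striatal projection neuron-like sums in 8 of 12 vectors for Lhx8, which did not pass (exact sign-flip permutation test, adjusted p = 0.0928). For Nkx2-1 7 of the 12 interneuron-like sums held reads and all 12 striatal projection neuron-like sums were at 0.

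Prox1, a homeodomain factor that also marks lymphatic endothelium and parts of the oligodendrocyte lineage, was read in interneuron-like and in oligodendrocyte-like nuclei and in 1 striatal projection neuron-like nucleus. It averaged 21.6 ± 41.3 CPM in interneuron-like sums (n = 18), against 78.1 ± 91.7 CPM in oligodendrocyte-like sums (n = 7; 48.6 ± 52.6 CPM without DLX2.0), and the pair shared 5 vectors, too few for the test. Without AiE0387m, which gave 693 of the 1468 interneuron-like reads, the interneuron-like mean was 14 ± 26.9 CPM (n = 17). Striatal projection neuron-like sums averaged 1.11 CPM, and the interneuron-like sum was higher in 7 of 12 vectors, which did not pass (exact sign-flip permutation test, adjusted p = 0.0594). A read was present in 18 of 274 interneuron-like nuclei (6.57%) and in 12 of 50 oligodendrocyte-like nuclei (24%, 13.1 to 38.2%). Glutamatergic-like and astrocyte-like nuclei held 0 reads. Among the 102 nuclei below 1000 genes another 7 held Prox1, between 407 and 2611 CPM.

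Nr2f2, an orphan nuclear receptor, was read in 15 interneuron-like, 7 astrocyte-like and 2 glutamatergic-like nuclei. Its mean level was 5.4 ± 12 CPM in interneuron-like (n = 18), 14.6 ± 29.9 CPM in astrocyte-like (n = 9) and 6.36 ± 18.7 CPM in glutamatergic-like sums (n = 12). Each mean leaned on 1 vector. It was 2.75 ± 4.22 CPM in interneuron-like sums without AiE0445h_3xC2, 5.06 ± 9.54 CPM in astrocyte-like sums without AiE0743m_3xC2 and 1.05 ± 3.47 CPM in glutamatergic-like sums without AiE0475m. The levels overlapped, and glutamatergic-like and interneuron-like sums did not differ beyond their spread (exact sign-flip permutation test over 12 vectors, adjusted p = 0.891).

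Across all genes, interneuron-like and glutamatergic-like sums were compared within 12 vectors (edgeR's quasi-likelihood test with vector as a block, Benjamini-Hochberg adjustment, 0.05). Of 8959 genes tested 3.2% were called, 1.76% higher and 1.44% lower in interneuron-like nuclei, while DESeq2 called 17.4%. All genes had a median of 0.37 on the log2 scale. Lhx6 ran from 6.00 CPM through a median of 152 to 605 CPM in the 12 interneuron-like sums and was at 0 in every glutamatergic-like sum. It averaged 211 ± 185 CPM in interneuron-like sums and 0 in glutamatergic-like sums (at least 1827-fold higher where 3 counts over the group stand in for 0, adjusted p = 3.17e-05). Sox6 ran from 45.2 CPM through 170 to 343 CPM in interneuron-like sums, and averaged 168 ± 80.0 CPM against 0 (at least 1534-fold higher, adjusted p = 8.20e-05). Maf ran from 124 CPM through 232 to 457 CPM in interneuron-like sums, against 0 through 0.242 to 10.4 CPM in glutamatergic-like sums. It averaged 277 ± 109 CPM in interneuron-like and 2.53 ± 3.84 CPM in glutamatergic-like sums (log2 fold change 7.85, SE 0.97, adjusted p = 6.39e-06). For these 3 the groups did not overlap over 12 vectors, with Lhx6 and Sox6 at 0 in every glutamatergic-like sum. The share of all genes without overlap was not counted, so no weight is put on this. Satb1 had a log2 fold change of 0.05 with an SE of 0.64 (adjusted p = 0.995). The other 5 factors did not pass the filter on low counts, and Lhx6 and Sox6 passed it through the interneuron-like sums alone. Maf passed it mainly through the interneuron-like sums, with a median of 0.242 CPM in glutamatergic-like sums. The adjusted p-values of Lhx6, Sox6 and Maf therefore add no support beyond the levels themselves. Without runs that held a striatal projection neuron-like nucleus, 5 vectors remained and Lhx6 was no longer called (log2 fold change 10.6, adjusted p = 0.271). After thinning to 150000 counts, and with classes from marker scores of single nuclei, Lhx6 did not pass the filter and was not tested.

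Interneuron-like and striatal projection neuron-like nuclei are both inhibitory, and 8.48% of 9217 genes were called between them in 12 vectors, 5.34% higher in interneuron-like nuclei, with a median log2 fold change of 0.63 over all genes. Lhx6 averaged 194 ± 184 CPM in interneuron-like and 0 in striatal projection neuron-like sums (at least 2200-fold higher, adjusted p = 5.32e-05). Sox6 averaged 174 ± 86.7 CPM against 0 (at least 1892-fold higher, adjusted p = 6.64e-05). With every striatal projection neuron-like sum at 0, both genes passed the filter on low counts through the interneuron-like sums alone. Their adjusted p-values therefore add no support beyond the levels themselves. Maf averaged 251 ± 93.4 against 4.70 ± 13.5 CPM (log2 fold change 9.06, SE 1.08, adjusted p = 5.75e-06), and the striatal projection neuron-like mean was 0.829 ± 2.09 CPM without AiE0475m. Satb1 ran from 4.99 CPM through 149 to 578 CPM in interneuron-like sums, against 0 through 0 to 38.2 CPM in striatal projection neuron-like sums, and the groups overlapped. It was called, at 183 ± 157 CPM in interneuron-like and 9.31 ± 14.6 CPM in striatal projection neuron-like sums (log2 fold change 6.75, SE 1.51, adjusted p = 0.00518, higher in 12 of 12 vectors). In library series S40326 alone Satb1 missed the threshold (adjusted p = 0.0608, 10 vectors). Maf and Satb1 were at 0 in most striatal projection neuron-like sums and passed the filter mainly through the interneuron-like sums. Their adjusted p-values likewise add no support beyond the levels, and their log2 fold changes are larger than the mean CPM would give.

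The 31 listed transcription factors of forebrain inhibitory lineages gave a mixed picture in the same fits. Against glutamatergic-like nuclei 15 were tested, 3 were called higher and 1 lower, beside 1.76% and 1.44% of all genes, with a median log2 fold change of -0.79 beside 0.37 over all genes. An unadjusted p under 0.05 was met by 8 of the 15, beside 11.5% of all genes, and DESeq2 called 8, beside 17.4%. Those higher were Dlx1 (79.6 ± 52.1 against 0.293 ± 1.01 CPM, adjusted p = 0.000152), Dlx6 (35.4 ± 18.8 against 0.423 ± 1.35 CPM, adjusted p = 0.000972) and Npas3 (57.2 ± 58.6 against 1.80 ± 3.96 CPM, adjusted p = 0.0121). Foxp1, a forkhead factor of deep-layer and striatal neurons, was lower (26.2 ± 21.4 against 222 ± 164 CPM, adjusted p = 0.0438). Dlx1, Dlx6 and Npas3 were near 0 in glutamatergic-like sums and entered this fit mainly through the interneuron-like sums. Their calls therefore add no support beyond the levels. Dlx1 and Dlx6 are homeobox genes of all forebrain inhibitory lineages. Dlx6os1, the opposite-strand partner of Dlx6, was among the markers that named the interneuron-like class and was not kept out of the clustering. With strand lost, the test of Dlx6 is not independent of how the classes were formed.

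Against striatal projection neuron-like nuclei 20 of the 31 were tested, 8 were called higher and 5 lower, beside 5.34% and 3.15% of all genes, with a median log2 fold change of 0.38 beside 0.63 over all genes. The 6 with the smallest p included Foxp1 (26.8 ± 20.2 against 816 ± 240 CPM) and Meis2 (8.76 ± 14.6 against 655 ± 228 CPM), both factors of striatal projection neurons, which were lower in 12 of 12 vectors. Nfib (203 ± 200 against 6.66 ± 11.9 CPM), Sox5 (52.3 ± 33.8 against 1.09 ± 3.78 CPM), Dlx1 (73.2 ± 52.6 against 4.02 ± 9.48 CPM) and Mef2c (630 ± 273 against 156 ± 115 CPM) were higher. Nfib, Sox5 and Dlx1 were low in striatal projection neuron-like sums and Meis2 in interneuron-like sums. These genes entered the fit mainly through the class where they were high, so their calls add no support beyond the levels. The 10 migration receptors, unlike the other lists, were not kept out of the genes that formed the classes, so their values between classes are descriptions with no test. Erbb4, the neuregulin receptor that guides migrating interneurons, averaged 294 ± 123 CPM in interneuron-like and 0.181 ± 0.626 CPM in glutamatergic-like sums. Beside striatal projection neuron-like sums Erbb4 averaged 308 ± 132 against 12.8 ± 16 CPM, Plxna4, a semaphorin coreceptor, 156 ± 85.9 against 22.6 ± 37.2 CPM, and Dcc, the netrin receptor, 33.3 ± 40.5 against 194 ± 74.6 CPM.

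Of 13 early patterning genes 2 were tested in each of these fits and 0 were called by edgeR, with 0 at an unadjusted p under 0.05 and 0 by DESeq2. Of 9 cholinergic genes 0 passed the filter against glutamatergic-like nuclei. Against striatal projection neuron-like nuclei 1 did, Isl1, and it was not called by edgeR. Its unadjusted p was under 0.05, as for 20.3% of all genes, and DESeq2 called it, as it did 30.6% of all genes.

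Within the interneuron-like nuclei the factors divided by cluster. The factors themselves were left out of the clustering, but neighbouring and antisense genes whose reads may mix with theirs were not. Levels by cluster may therefore not be independent of how the clusters were formed. The values below are descriptions with no test, and the clusters come from the same vectors and libraries. The Vip/Adarb2 cluster held 0 reads of Lhx6, Lhx8, Nkx2-1 and Sox6 in its 27 nuclei and 1 read of Satb1, and 3 of 27 is a share of 11.1% for the genes at 0. The same 27 nuclei held Maf in 24, at 486 CPM over the cluster, with Nr2f2 in 5, Prox1 in 6 and Npas1 in 4. This was the highest Maf level of the 5 clusters, the next being 328 CPM in the Pthlh/Mc4r cluster. Over vectors with at least 3 nuclei, Maf averaged 511 ± 399 CPM in the Vip/Adarb2 cluster (n = 4), and 366 ± 336 CPM without AiE0452h. That overlapped 311 ± 245 CPM in the Lama4/Crhbp cluster (n = 14) and 289 ± 188 CPM in the Pthlh/Mc4r cluster (n = 4).

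**Figure D2:**
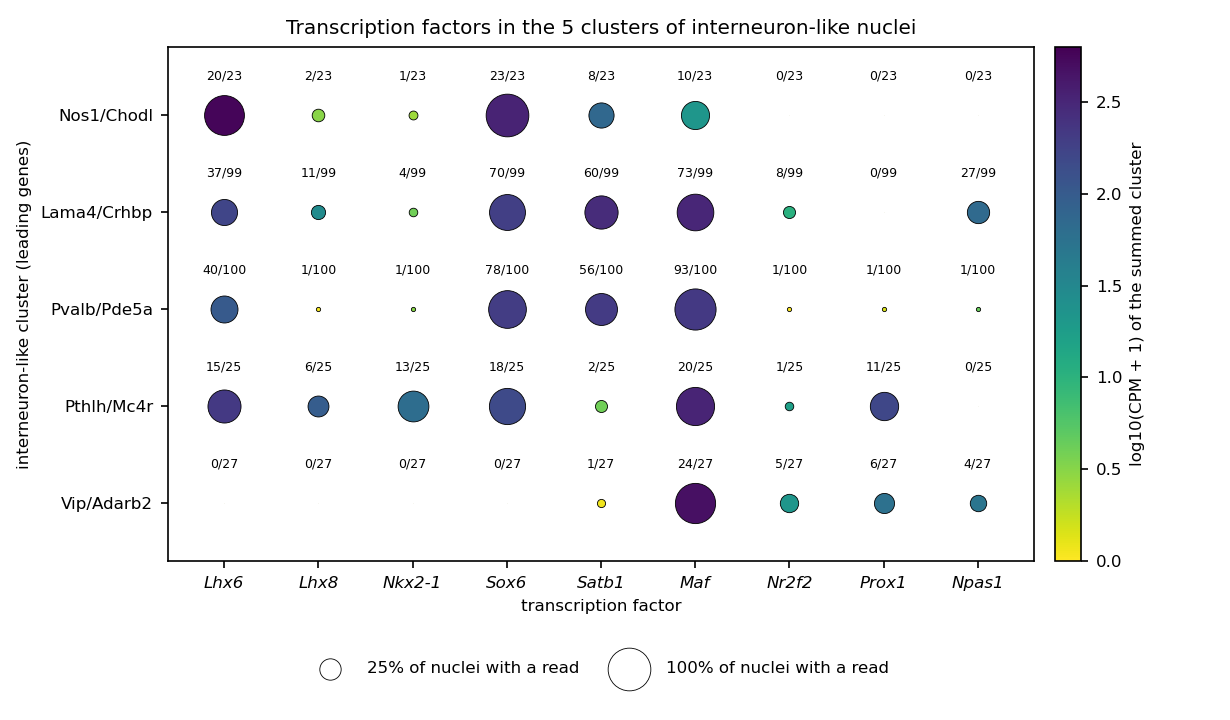
The 9 factors in the 5 clusters of interneuron-like nuclei. Circle area gives the share of nuclei with a read, colour the CPM of the summed cluster on a log10(CPM + 1) scale, and the numbers are nuclei with a read over nuclei; colours are to be compared down a column. Lhx6 and Sox6 are at 0 of 27 in the Vip/Adarb2 cluster, while Maf is at 24 of 27 there and at 10 of 23 in the Nos1/Chodl cluster.

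The Nos1/Chodl cluster showed the reverse for Maf. Lhx6 was present in 20 of its 23 nuclei (87.0%, 66.4 to 97.2%) at 579 CPM over the cluster, the highest level of the 5, and Sox6 in 23 of 23 at 338 CPM. Maf was read in 10 of 23 and reached 20.3 CPM over the cluster, against 214 to 486 CPM in the other 4 clusters. No single nucleus of the 23 had more than 134 CPM of Maf. Satb1 was found in 8 of 23 at 72.5 CPM (43.8 CPM without hI56i), and Nr2f2, Prox1 and Npas1 in 0 of 23, where 3 nuclei are 13%. Inside and outside runs that held a striatal projection neuron-like nucleus Lhx6 was present in 9 of 11 and in 11 of 12 of these nuclei.

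The Pvalb/Pde5a and Lama4/Crhbp clusters were alike in Sox6, with 78 of 100 and 70 of 99 nuclei, and in Satb1, with 56 of 100 and 60 of 99 nuclei. Lhx6 was read in 40 of 100 Pvalb/Pde5a nuclei at 102 CPM and in 37 of 99 Lama4/Crhbp nuclei at 166 CPM. Without AiE0401h, which gave 2060 of the 4209 Lama4/Crhbp reads, the levels were 74.9 and 97 CPM. They parted on Npas1, which was read in 1 of 100 Pvalb/Pde5a nuclei and in 27 of 99 Lama4/Crhbp nuclei (27.3%, 18.8 to 37.1%). Npas1 was read in 0 of 25 Pthlh/Mc4r nuclei and in 0 of 23 Nos1/Chodl nuclei.

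The Pthlh/Mc4r cluster held reads of factors known from both eminences. Lhx6 was present in 15 of its 25 nuclei at 217 CPM, Sox6 in 18 and Maf in 20. Nkx2-1 was present in 13 of 25 (52.0%, 31.3 to 72.2%) at 62.9 CPM, and the other 4 clusters held 6 of the 19 Nkx2-1 nuclei. Prox1 was present in 11 of 25 (44.0%, 24.4 to 65.1%) at 160 CPM, and in the Vip/Adarb2 cluster in 6 of 27 (8.62 to 42.3%) at 57.6 CPM. These intervals overlap, and 1 vector gave most reads in each. Prox1 was at 72.9 CPM in the Pthlh/Mc4r cluster without AiE0387m (7 of 20 nuclei) and at 30.2 CPM in the Vip/Adarb2 cluster without AiE0390m (4 of 24). Satb1 was read in 2 of 25 at 3.09 CPM over the cluster. Pthlh, which encodes a parathyroid hormone-related peptide, is known from interneurons of the striatum and from a subset of Pvalb cells.

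More of this cluster than of any other stood in runs that held a striatal projection neuron-like nucleus, 14 of 25. Nkx2-1 was present in 8 of these 14 (86.8 CPM) and in 5 of the 11 in other runs (34.4 CPM, and 3.87 CPM without AiE0475m). Prox1 was present in 4 of 14 (56.0 CPM) and in 7 of 11 in other runs (283 CPM). Of the 880 reads in the other runs 632 came from AiE0387m, and without it the level was 108 CPM (4 of 8 nuclei). Lhx8 was present in 6 of 14 (174 CPM) and in 0 of 11 in other runs. The leading genes of the cluster included Sfta3-ps, a pseudogene that lies 2530 bases downstream of Nkx2-1 on the same strand, read in 21 of 25 nuclei. Of the 19 nuclei with Nkx2-1 12 also held Sfta3-ps, out of 32 interneuron-like nuclei with Sfta3-ps. Whether reads of one gene run into the other was not tested. Sfta3-ps was not kept out of the clustering, so the gathering of Nkx2-1 may not be independent of how this cluster formed.

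**Figure D3:**
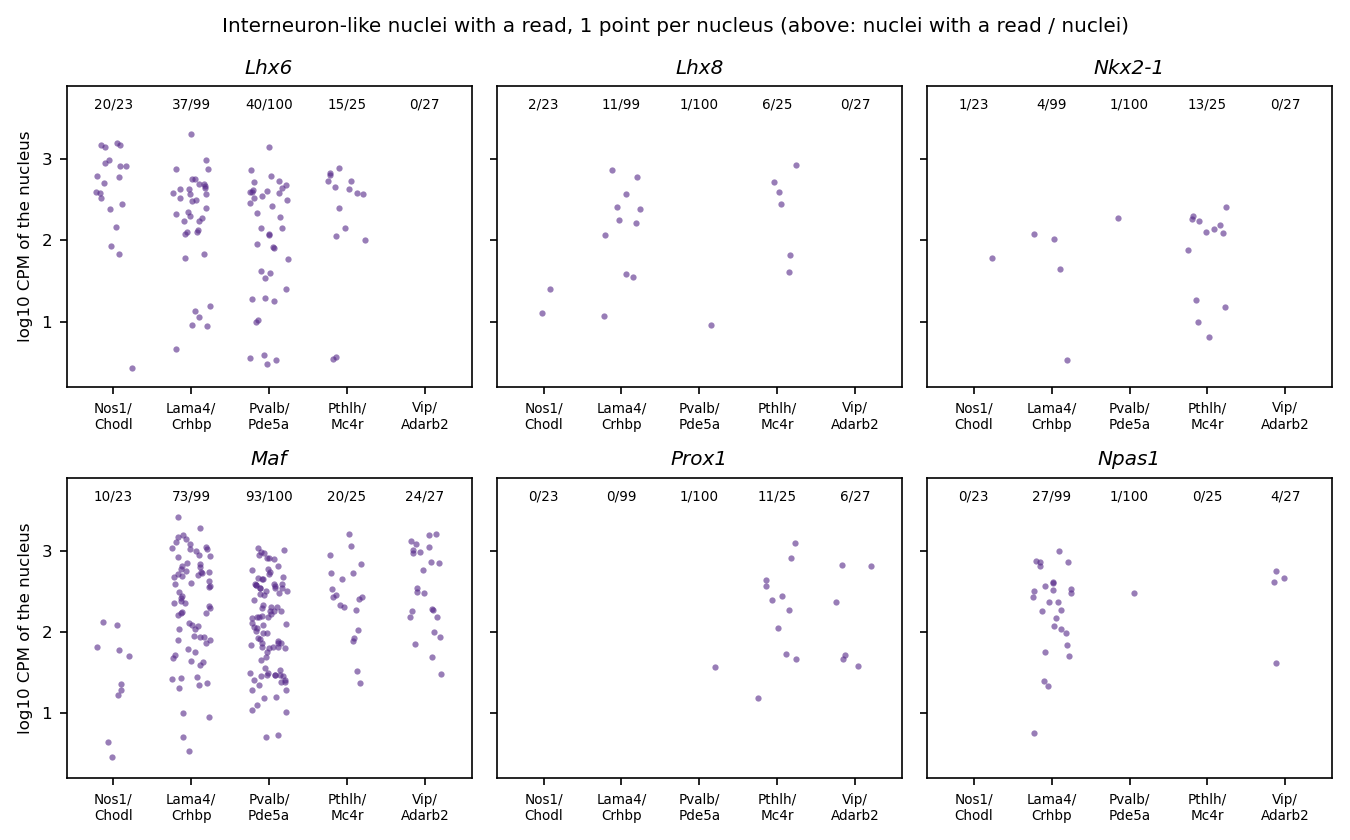
CPM of single interneuron-like nuclei with at least 1 read of a factor, on a log10 axis, by cluster; the numbers above are nuclei with a read over nuclei. Nkx2-1 points gather in the Pthlh/Mc4r cluster (13 of 25) and Npas1 points in the Lama4/Crhbp cluster (27 of 99), and all Maf points of the Nos1/Chodl cluster lie at or below 134 CPM.

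All 4 nuclei of the Chat/Slc5a7 subcluster held Lhx8, at 603, 162, 116 and 375 CPM, and came from 3 vectors. The same 4 nuclei held 0 reads of Lhx6, Sox6, Satb1, Nr2f2, Prox1 and Npas1, 2 of them held Nkx2-1 (3.40 and 44.5 CPM) and 1 held a single read of Maf. The remaining 16 interneuron-like nuclei with Lhx8 held no Chat: 7 lay elsewhere in the Lama4/Crhbp cluster, 6 in the Pthlh/Mc4r cluster, 2 in the Nos1/Chodl cluster and 1 in the Pvalb/Pde5a cluster. Lhx8 was read in 13 of 67 nuclei with neither Sst nor Pvalb (19.4%, 10.8 to 30.9%), against 4 of 108 Sst-high and 3 of 99 Pvalb-high nuclei. Of the 20 nuclei 16 stood in runs that held a striatal projection neuron-like nucleus, at 62.4 CPM over the 77 nuclei of such runs, and 4 among the 197 nuclei of other runs, at 1.63 CPM.

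Nuclei with both Lhx8 and Nkx2-1 numbered 6, and 3 of these also held Lhx6 at 436, 425 and 386 CPM. In the other 3 Lhx6 was at 0, and 2 of them belonged to the Chat/Slc5a7 subcluster. Of the 6, 1 held a read of Maf, at 3.40 CPM, and 0 held Sox6.

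Over all interneuron-like nuclei 5 held none of the 9 factors, 35 held 1, 60 held 2, 109 held 3, 55 held 4 and 10 held 5. Lhx6 was found with Sox6 in 91 of the 112 nuclei with Lhx6 and with Maf in 92 of 112. Lhx8 went with Maf in 3 of 20 nuclei, although Maf was present in 220 of 274. Prox1 was found with Maf in 18 of 18 nuclei, with Nkx2-1 in 7 of 18 and with Satb1 in 0 of 18. Nkx2-1 was found with Satb1 in 1 of 19. In full-length single-nucleus data a missing read does not show a missing transcript, so these counts are lower limits on joint presence.

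**Figure D4:**
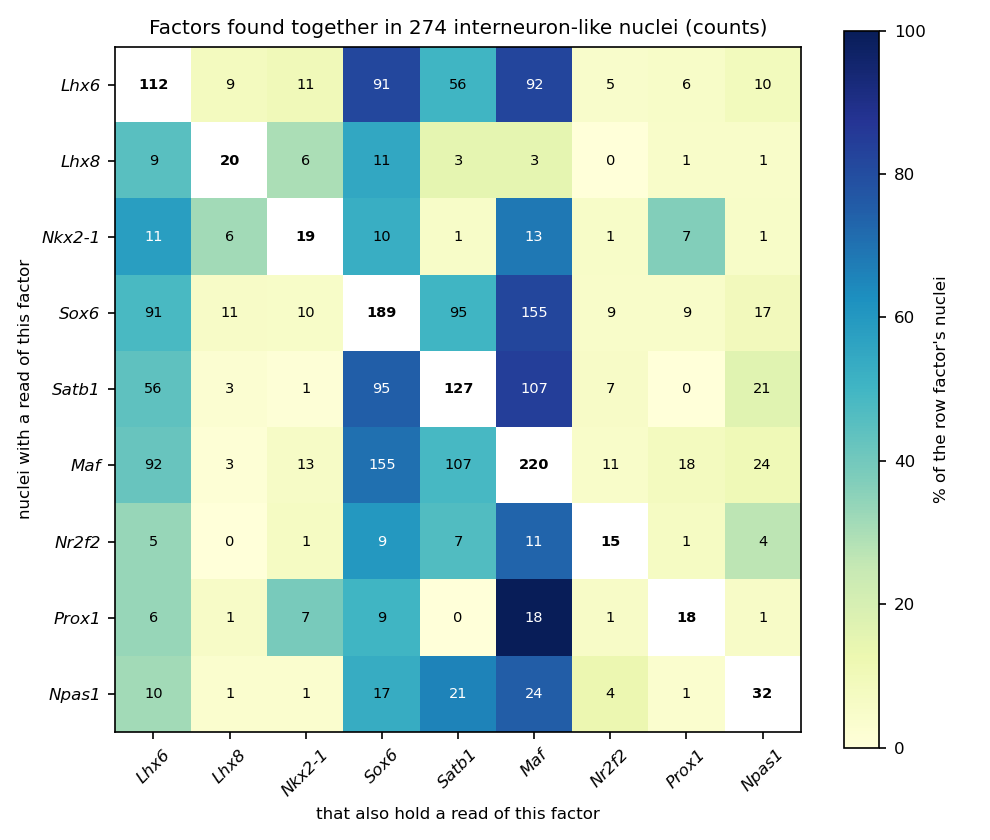
Interneuron-like nuclei in which both factors had at least 1 read. Each number is a count of nuclei, the diagonal gives the nuclei with a read of 1 factor, and colour gives the percent of the row factor's nuclei that also hold the column factor. All 18 Prox1 nuclei hold Maf and 0 hold Satb1, and 3 of 20 Lhx8 nuclei hold Maf.

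By kind, Sst-high and Pvalb-high sums were compared within 12 vectors, where edgeR called 0.481% of 7479 genes, 0.281% higher and 0.201% lower in Sst-high nuclei. An unadjusted p under 0.05 was met by 5.62% of genes, and DESeq2 called 7.17%. Lhx6, Sox6, Satb1 and Maf were tested and 0 of the 4 were called (1 had an unadjusted p under 0.05, and DESeq2 called 0). Satb1 averaged 397 ± 361 CPM in Sst-high and 221 ± 195 CPM in Pvalb-high sums (log2 fold change 0.85, SE 0.39, p = 0.0376, adjusted p = 0.826, higher in 9 of 12 vectors). Lhx6 averaged 204 ± 232 CPM in Sst-high and 115 ± 139 CPM in Pvalb-high sums (log2 fold change 0.97, SE 0.83). Sox6 and Maf had log2 fold changes of 0.22 (SE 0.51) and -0.22 (SE 0.49). Npas1 did not pass the filter on low counts but was read in 24 of 108 Sst-high (22.2%, 14.8 to 31.2%) and 1 of 99 Pvalb-high nuclei, with a higher Sst-high sum in 10 of 12 vectors and equal sums at 0 in AiE0387m and AiE0475m. Pvalb-high sums were at 0 in 11 of the 12 vectors and at 74.1 CPM in hSyn1. With no filter beyond 1 count edgeR called Npas1 (adjusted p = 0.00613) among 113 genes, against 36 genes called in the main fit. Since Npas1 entered that fit almost only through the Sst-high sums, the call adds no support. Npas1 was also called where AiE0387m or AiE0475m, both with sums at 0, was left out. These calls add no support either, since they drop the sums without reads. Prox1 was read in 0 of 108 Sst-high nuclei and in 8 of 99 Pvalb-high nuclei. Of the 12 vectors compared 3 held Prox1 in their Pvalb-high sums, at 326 CPM in AiE0387m, 31.6 CPM in AiE0475m and 24.4 CPM in AiE0600m.

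Nuclei with neither Sst nor Pvalb were then compared with those high in either within 11 vectors. Of 7996 genes 0.025% were called by edgeR, 8.23% had an unadjusted p under 0.05 and DESeq2 called 12.7%. All genes had a median of -0.92 on the log2 scale. Of the 9 factors 4 were tested and 0 called, with 2 at an unadjusted p under 0.05 and 2 called by DESeq2. Sox6 was lower in nuclei with neither in 11 of 11 vectors, at 86.2 ± 74.2 against 222 ± 98.0 CPM (log2 fold change -2.35, SE 0.93, with an adjusted p = 0.511 from edgeR and 0.0214 from DESeq2). Satb1 was at 39.7 ± 63.7 against 173 ± 142 CPM, with a mean in nuclei with neither of 22.6 CPM without AiE0452h (log2 fold change -4.15, SE 1.41, with an adjusted p = 0.416 from edgeR and 0.000239 from DESeq2). Maf had a log2 fold change of -0.11 (SE 0.42). Lhx8 and Nkx2-1 did not pass the filter, and their sums were higher in nuclei with neither in 5 and 6 of 11 vectors and lower in 2 and 1.

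Kinds were also taken from another clustering, of interneuron-like nuclei alone, in place of Sst and Pvalb reads (kinds from clusters). Neither kind then meant groups of 26, 10 and 4 nuclei, the last being the Chat/Slc5a7 subcluster, and Pvalb took in a group led by Crabp1. Pvalb also took in a group of 36 nuclei led by Cort and Rbp4. Since Rbp4 was also among the leading genes of the Lama4/Crhbp cluster, the Pvalb kind may be mixed here. In this edgeR fit, over 8 vectors, Lhx6 (log2 fold change -9.65, adjusted p = 0.00459) and Satb1 (log2 fold change -9.69, adjusted p = 0.0174) were called lower in neither kind. They were among 26 genes called, against 2 in the main fit. Lhx6 and Satb1 were at or near 0 reads in the Vip/Adarb2 cluster and in the Chat/Slc5a7 subcluster. Both genes may thus have entered this fit mainly through the Sst and Pvalb sums, so the calls add no support. In the main fit with 1 vector left out at a time, edgeR did not call Lhx6 (log2 fold change -2.21 to -1.36, adjusted p 0.65 to 0.83). In the 2 comparisons by kind 0 genes of the 4 lists were called by edgeR. For Sst-high against Pvalb-high nuclei an unadjusted p under 0.05 was met by 4 of 13 forebrain inhibitory factors tested and 2 of 5 migration receptors, beside 5.62% of all genes, and DESeq2 called 4 and 3 of them, beside 7.17%. For nuclei with neither it was met by 3 of 16 inhibitory factors and 0 of 6 migration receptors, beside 8.23% of all genes, and DESeq2 called 4 and 0 of them, beside 12.7%. Of the early patterning genes 2 were tested in each comparison and of the cholinergic genes 0, and 0 had an unadjusted p under 0.05 or were called by DESeq2.

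The genes with the pattern most like each factor were found by Pearson's r of log2(CPM + 1) over 60 sums of a vector and a class, among 9841 genes. The sums share vectors and libraries, and r is a description. Lhx6 and Maf had the same 3 nearest genes, Kcnip1, a potassium channel interacting protein (r = 0.95 for both), Gm12120 (0.94 for both) and Akain1 (0.91 and 0.93). Lhx8 had Nkx2-1 (0.73) and Sfta3-ps (0.73) among its 3 nearest genes, and Nkx2-1 had Lhx8 (0.73) and Sfta3-ps (0.69). Npas1 was nearest to Kcnmb2, Kcns3 and Pnoc (0.88, 0.87 and 0.86), and Sox6 to Nupr1, Igsf3 and Npas3 (0.85, 0.85 and 0.84). Satb1 was nearest to Trhde, Ildr2 and Mfsd4a (0.76, 0.76 and 0.75), Prox1 to Chn2, Zfp536 and Ano4 (0.74, 0.60 and 0.58), and Nr2f2 to Slc7a5, Mrm1 and Ids (0.65, 0.51 and 0.51).

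Over all 40 nuclei of a vector nuclei of all classes are added up, and fewer nuclei of a kind and less RNA per nucleus cannot be told apart in a sum. Lhx6 was read under 19 of 20 vectors, from 0 in AiE0410m through a median of 27.1 to 365 CPM in AiE0401h, where 24 of the 40 nuclei were interneuron-like and 7 of those lay in the Nos1/Chodl cluster. Maf was highest in DLX2.0 (273 CPM, 24 interneuron-like nuclei) and lowest in AiE0410m (0.691 CPM, 1 interneuron-like nucleus). Satb1 was highest in hSyn1 (308 CPM), where 11 interneuron-like nuclei held 2049 of its reads and 27 glutamatergic-like nuclei 988. Sox6 was highest in AiE0390m (152 CPM), where 25 astrocyte-like nuclei held 1388 of its 1603 reads and 8 interneuron-like nuclei 182.

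The rarer factors were spread unevenly over vectors. Nkx2-1 was read under 8 of 20 vectors, up to 14.9 CPM in AiE0475m, and Lhx8 under 12, up to 37.2 CPM in AiE0450h and 34 CPM in AiE0743m_3xC2. DLX2.0 held 0 reads of both in 40 nuclei although 24 were interneuron-like, and so did AiE0452h with 29. Prox1 was highest in AiE0410m (81.7 CPM), which held 1 interneuron-like nucleus, 4 oligodendrocyte-like nuclei and 28 nuclei below 1000 genes. With those 28 and the like left out the highest Prox1 level was 76.8 CPM in AiE0387m. Npas1 was read under 15 vectors, up to 36.9 CPM in AiE0452h and 36.8 CPM in DLX2.0, and Nr2f2 under 11, up to 23.9 CPM in AiE0743m_3xC2. Over nuclei with at least 1000 genes Nr2f2 was highest in AiE0445h_3xC2 (24.7 CPM).

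**Figure D5:**
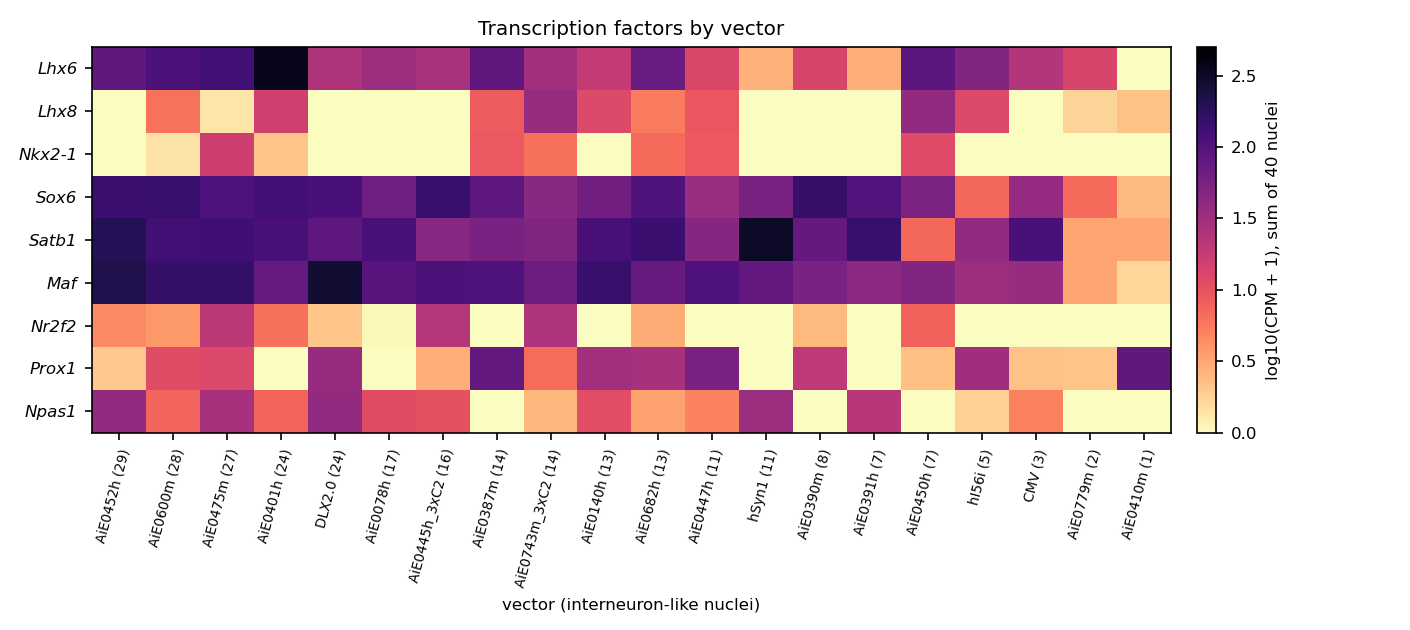
Level of each factor in the sum of 40 nuclei of each vector, as log10(CPM + 1), with vectors ordered from left to right by their number of interneuron-like nuclei, given in parentheses. Lhx6 is darkest in AiE0401h (365 CPM), Satb1 in hSyn1 (308 CPM) and Maf in DLX2.0 (273 CPM), while Nkx2-1 has a level above 0 in 8 of the 20 columns.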

How the data were processed

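Single nuclei were sequenced 1 per library with SMART-Seq v4, which gives full-length cDNA without molecule barcodes and does not keep the strand, so values count reads and grow with transcript length. The authors deposited a table of whole-number counts of 32285 genes in 2501 nuclei. Per the submitters' processing notes, STAR 2.7.2a and mm10 were used. Which annotation was counted, and whether intron reads were, is not given in the sources used here. Columns of 800 labelled nuclei were matched by library name, and the other 1701 columns were not analysed here. Depth ran from 70 to 901264 counts per nucleus, with a median of 260170.5.

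Nuclei with at least 1000 genes were clustered (scanpy 1.11.5, leidenalg 0.10.2) without the 9 factors and 3 of the 4 gene lists (the migration receptors stayed in), and clusters were named from marker lists. Counts were summed per vector and class where both classes had at least 3 nuclei, and compared by edgeR 4.0.16 in R 4.3.3 (TMM, filterByExpr, quasi-likelihood F test, vector as a block, adjusted p under 0.05). The pairing of sums comes from the shared vector label. DESeq2 1.42.0 was an alternative. Each SE was taken as the size of the log2 fold change divided by the root of its F statistic. Neighbouring classes were compared by exact sign-flip permutation (scipy 1.17.1) of log2(CPM + 1) in at least 6 shared vectors. Shares have exact Clopper-Pearson 95% intervals, and an absent gene is given a limit of 3 counts (for shares, 3 nuclei of the total), a separate rule from these intervals. Levels without the vector that gave most reads or had the highest level were added after the data were seen. For equal depth nuclei were thinned to 150000 counts, and 49 of the 800 were too shallow. Positions are from GENCODE M21 of mm10, which need not be the authors' annotation.

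The 9 factors and the gene lists were chosen with earlier results of these data known. Named from the lists were genes past the threshold, at most 6 per list and comparison, and the 3 genes most like each factor; a few items are not reported here. Procedures were tested on simulated data. In sums simulated for the 4 comparisons, edgeR recovered 8 to 17% of genes changed by 2 on the log2 scale. At a change of 4 it recovered 58 to 70%. A factor that was not called is therefore not shown to be alike between groups. Python 3.11.15, numpy 2.4.6, pandas 2.3.3 and matplotlib 3.10.9 were used.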

Additional observations from a re-analysis of the deposited data

Results flagged for a closer look

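In groups of 4 to 10 vectors, a vector was set apart where its gap to the nearest other vector took most of the group's range (Dixon's 95% limit). Chance alone marks about 1 in 20 such groups, and 17 groups were examined. In the Pthlh/Mc4r cluster, over 4 vectors, AiE0743m_3xC2 stood apart for Lhx8 (209.9 CPM, the next at 0), AiE0387m for Prox1 (495 CPM, the next at 119 CPM), and AiE0475m for Satb1 (7.59 CPM, the next at 0) and for Nr2f2 (56.9 CPM, the next at 0). Where the other 3 sums are at 0, as for Lhx8, Satb1 and Nr2f2 here, any 1 sum above 0 is set apart by construction, and the rate of 1 in 20 does not apply. In the Vip/Adarb2 cluster AiE0390m stood apart for Prox1 (318 CPM, the next at 21.1 CPM). Among astrocyte-like sums of 9 vectors AiE0743m_3xC2 stood apart for Nr2f2 (90.8 CPM, the next at 23.5 CPM).

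The 102 nuclei below 1000 genes entered no comparison, and reads of 4 factors were above the floor of 3 counts there. Prox1 reached 52.1 CPM in the sum, with reads in 7 nuclei under 4 vectors. Sox6 reached 10.5 CPM (4 nuclei), Satb1 4.8 CPM (3 nuclei) and Maf 2.72 CPM (3 nuclei). Lhx6, Lhx8, Nkx2-1, Nr2f2 and Npas1 had 0 reads in these nuclei.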

How the results depend on the processing

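Of 398 values of single factors under the alternatives, 367 kept their direction and side of the threshold, 4 passed it newly, 2 no longer passed and 25 changed sign, none of these being called in either setting. Against glutamatergic-like nuclei Satb1 (log2 fold change 0.05) was at -0.07 with vector and library series as the unit, -0.14 at 2000 genes, -0.04 at 5 nuclei per sum, -0.47 in series S40326 and -0.25 to 0.3 when 1 vector was left out. In Sst-high against Pvalb-high nuclei Maf (-0.22) was at 0.16 without the replicate block, 0.71 at 5 nuclei per sum, 1.47 in series S40324, 0.94 without runs holding a striatal projection neuron-like nucleus, 0.73 at 500 CPM and 0.52 with kinds from clusters. In series S40324, where 2 vectors remained of 12, Lhx6 (0.97) was at -4.58 and Sox6 (0.22) at -1.19, and Sox6 was at -0.01 to 0.46 when 1 vector was left out. In nuclei with neither Maf (-0.11) was at 0.09 by DESeq2, 0.08 by RLE scaling, 0.1 without the replicate block, 0.21 in series S40324, 0.25 without such runs, 0.03 at 20 CPM, 0.59 at 500 CPM and -0.32 to 0.06 when 1 vector was left out. Counts of called genes moved as follows. For interneuron-like against glutamatergic-like nuclei (287 genes, 3 factors) DESeq2 called 1555, no filter beyond 1 count 507 (5 factors), vector and library series as the unit 135, series S40326 alone 98 and leaving out runs that held a striatal projection neuron-like nucleus 41. For interneuron-like against striatal projection neuron-like nuclei (782 genes, 4 factors) the first 4 of these gave 2819, 1427 (7 factors), 421 and 376. For Sst-high against Pvalb-high (36 genes, 0 factors) DESeq2 gave 536, no filter 113 (1 factor), vector and series 17, at least 5 nuclei per sum 16, series S40324 alone 8, S40326 alone 7, no such runs 11, a minimum of 500 CPM 21 and kinds from clusters 21. For neither against Sst-high or Pvalb-high (2 genes, 0 factors) DESeq2 gave 1015 (2 factors), no filter 31, vector and series, a minimum of 2000 genes, thinning, S40326 alone and a minimum of 20 CPM 4 each, S40324 alone 17, 500 CPM 5 and kinds from clusters 26 (2 factors). The cause was not tested.

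Without the replicate block by vector the 4 comparisons gave 258, 634, 21 and 2 genes, and 3, 4, 0 and 0 factors. Leaving out 1 vector at a time gave 198 to 361, 660 to 825, 16 to 41 and 1 to 4 genes, and 3 to 4, 4 to 4, 0 to 1 and 0 to 0 factors, the added factor being Npas1, which then passed the filter. Without AiE0140h Sst-high against Pvalb-high gave 16 genes and without AiE0447h 22, and without AiE0445h_3xC2 the last comparison gave 1 and without AiE0447h 4. Lhx6 did not pass the filter against glutamatergic-like nuclei after thinning or with classes from marker scores. Neither comparison of classes was run in series S40324 alone. Lhx6 and Sox6 met in 76 nuclei at 5 reads and in 85 of 260 thinned nuclei, an alternative chosen after seeing the data. At that depth Lhx6 was read in 102 of 260 interneuron-like nuclei, Lhx8 in 20, Nkx2-1 in 19 and Prox1 in 18.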

Other observations

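Interneuron-like nuclei with a rare factor were uneven across library series, the batch named in the library names. Series S40326 held 17 of the 20 nuclei with Lhx8 and 17 of the 19 with Nkx2-1, against 15 of the 32 with Npas1, and 408 of all 800 nuclei. Series S40324 held 9 of the 15 interneuron-like nuclei with Nr2f2. Whether the series or the nuclei sorted for it goes with these counts cannot be told apart.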
